A study of Mus musculus with 4 samples.

Results

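The regulators of apoptosis and survival described here were 10 genes, taken by name from 21878 genes listed in the count table: the pro-survival BCL2 relatives Bcl2, Bcl2l1 and Mcl1, the effectors Bax and Bak1, the BH3-only genes Bcl2l11 and Bid, and Birc3, Cflar and Ripk3. The rule used their names and no measured value, although the set was proposed with earlier results of these data known, and all 10 passed the filter on low counts that left 12494 genes for testing. RNA sequencing was done on bone marrow-derived macrophages of 8-week C57BL/6 mice that had been cultured with MC38, a mouse colon cancer cell line, on the other side of a porous insert, for 48 h by the labels, while the study's text also gives a shorter time. WT macrophages gave 2 libraries, and anti-Act1 macrophages gave 2. Anti-Act1 mice carry a macrophage-specific knockdown of Act1, an adaptor protein of interleukin 17 receptor signalling encoded by Traf3ip2. The promoter that drives the knockdown is not given in the sources used here, and all 4 libraries came from cocultured cells, so that macrophages without tumour cells were not compared.

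Cells commit to the mitochondrial pathway of apoptosis when BAX and BAK permeabilise the outer mitochondrial membrane. BCL2, BCL-XL (the product of Bcl2l1) and MCL1 hold these effectors back, and BH3-only proteins such as BIM (the product of Bcl2l11) and BID release or activate them. In the death receptor pathway, cIAP2 (the product of Birc3) ubiquitylates RIPK1, and cFLIP (the product of Cflar) restrains caspase 8, whereas RIPK3 phosphorylates MLKL to drive necroptosis when caspase 8 is inactive. Macrophages depend on M-CSF for survival, and NF-κB raises Birc3, Cflar and other survival genes when toll-like or cytokine receptors are engaged.

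Library totals ran from 55435063 to 75062945 counts. Traf3ip2 did not pass the test for a difference. Its level was 6.98 and 7.54 CPM (each count scaled to a common library size, with edgeR's TMM factors) in WT and 9.63 and 7.84 CPM in anti-Act1, which is 0.27 ± 0.12 (SE) on the log2 scale with an adjusted p of 0.117 by edgeR, so the count table did not show a lower level of the targeted gene. Where in the transcript the knockdown acts was not given, so this level is an incomplete check of the labels. The Y-linked genes Ddx3y, Eif2s3y, Uty and Kdm5d had at least 2248 counts in each WT library and at most 1 count in each anti-Act1 library, so that the sex of the cells and the genotype cannot be told apart in any comparison here. Macrophage markers such as Csf1r and Lyz2 were abundant in all 4 libraries, with a summed level of 24570 to 25551 CPM in WT and 25415 to 26254 CPM in anti-Act1. Most of that sum was Lyz2, at 16809 and 15809 CPM in WT and 17133 and 17734 CPM in anti-Act1. The median log2 fold change of the 8 macrophage markers was -0.08, so the sum does not stand for each marker. Of 10 epithelial markers, 8 had no more than 3 counts in any library, and the summed level of the list was 0.369 to 0.464 CPM in WT and 0.128 to 0.389 CPM in anti-Act1. In bulk RNA, fewer cells of a type and less RNA per cell cannot be told apart.

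Among the 10 genes, Birc3 rose in anti-Act1 macrophages, and Bcl2, Bcl2l1 and Bcl2l11 fell. The other 6 genes (Mcl1, Bax, Bak1, Bid, Cflar and Ripk3) did not pass the test. A gene passed where its adjusted p in edgeR's quasi-likelihood F test was under 0.05, with the Benjamini-Hochberg adjustment over all genes tested. By this rule 4 of 10 genes passed, beside 20.7% of all 12494 genes tested. The count was 1 higher, beside 10.9% of all genes tested that were higher, and 3 lower, beside 9.76% that were lower. The CPM of the groups did not overlap for 9 of the 10 genes, beside 57.1% of all genes tested. The median log2 fold change was 0.04 over the 10 genes and -0.0046 over all genes tested.

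**Figure D1:**
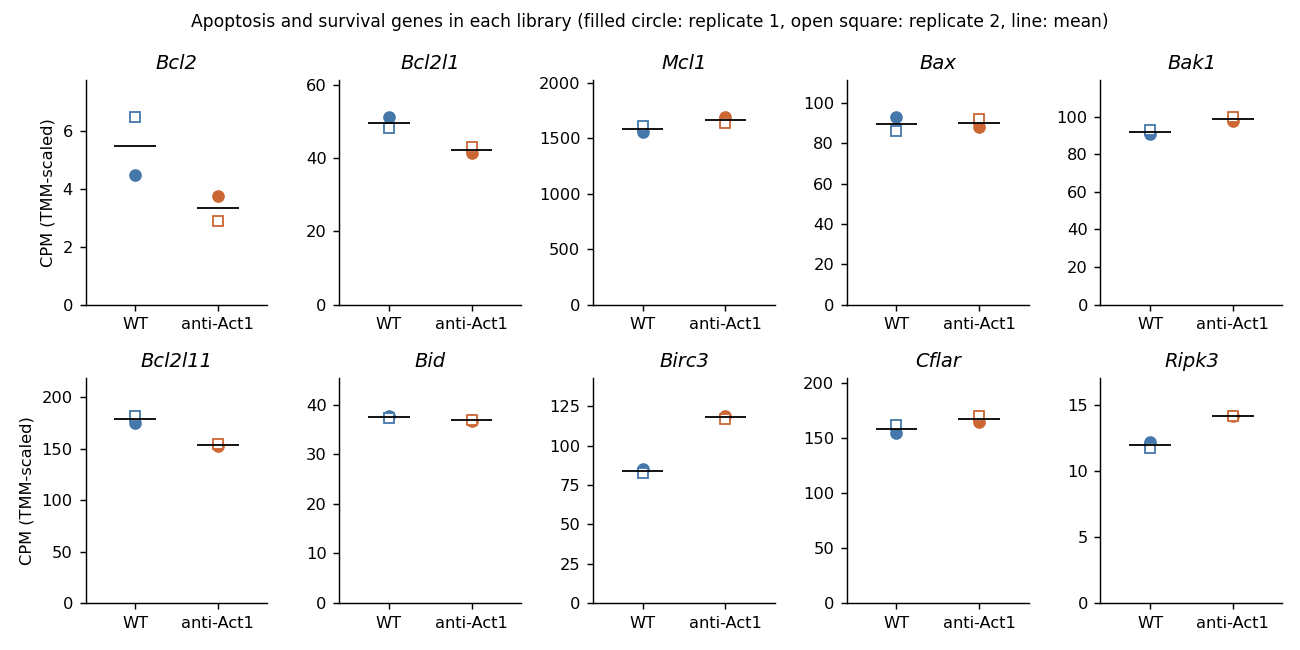
CPM of each of the 10 genes (vertical axes, from 0, a separate scale for each gene) in WT (blue) and anti-Act1 (orange) libraries, with filled circles for replicate 1, open squares for replicate 2 and lines for the group mean. Birc3 sat at 82.4 to 85.4 CPM in WT and 117 to 119 CPM in anti-Act1, Bcl2 spread most between libraries of the same group, and Bax alone overlapped between the groups.

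The levels of the 10 genes covered a range of more than 2 orders of magnitude when read per gene length, as FPKM (fragments scaled to transcript length and library size, as deposited). Mcl1 was highest, at 680 ± 18.3 FPKM in WT and 703 ± 22.7 FPKM in anti-Act1 (SD, n = 2 in each group here and below). It stood at percentile 99.3 of the 10168 genes that reached an FPKM of 1 in at least 2 libraries, and made up 97.2% to 97.9% of the summed FPKM of Bcl2, Bcl2l1 and Mcl1. Bax followed at 51.6 ± 2.52 FPKM in WT, then Bak1 at 46.2 ± 0.927, Bcl2l11 at 39.8 ± 1.32, Birc3 at 31.5 ± 0.696, Cflar at 24.6 ± 0.847, Bid at 19.3 ± 0.108, Bcl2l1 at 17.7 ± 0.688, Ripk3 at 6.34 ± 0.15 and Bcl2 at 1.18 ± 0.311. In anti-Act1 the order was the same except that Birc3, at 43.6 ± 1.02 FPKM, stood above Bcl2l11, at 33.6 ± 0.0494 FPKM. Within either group no gene's range over its 2 libraries overlapped that of its neighbour in this order, although 2 libraries give a narrow view of the spread.

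**Figure D2:**
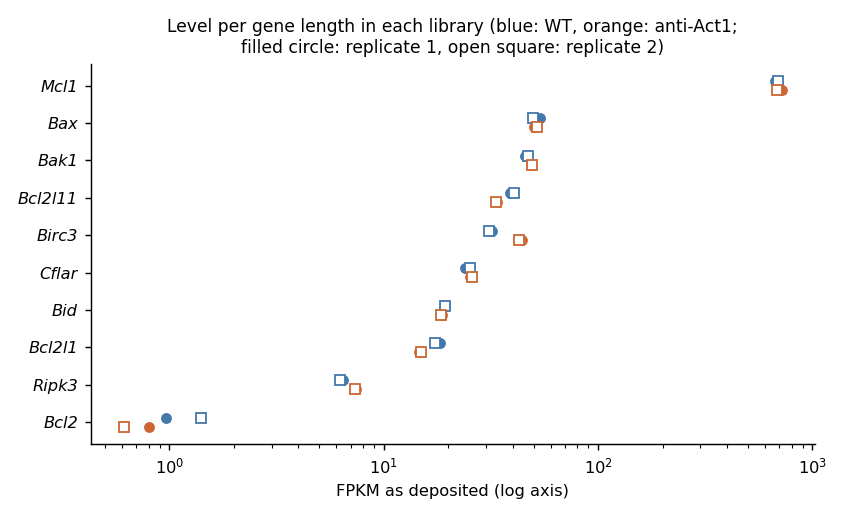
Deposited FPKM of the 10 genes on a log axis, 1 line per gene in order of the WT mean, with WT libraries in blue, anti-Act1 libraries in orange, filled circles for replicate 1 and open squares for replicate 2. Mcl1 stood far above the other genes and Bcl2 far below them, and Birc3 and Bcl2l11 exchanged places between the groups.

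Promoter windows of 3 of the 4 genes that passed are shown. Motifs of NF-κB, named above, and of the FOXO factors, which are known to raise Bcl2l11, were among those looked for in the windows of all 10 genes. The Bcl2l11 and Bcl2l1 windows printed are those in which a match was found, and the Birc3 window held none. The window of Bcl2, which also passed the test, held no match and is not printed. Each window is the RefSeq sequence (GRCm38.p6) from 250 bases before to 50 bases after a start site, 300 bases long, written 5′ to 3′ along the gene, and capitals mark a motif match. The Bcl2l11 window, which is 1 of 2 for this gene, lies at chr2:128125788-128126087 on the plus strand, the Bcl2l1 window, which is 1 of 3 for this gene, at chr2:152830668-152830967 on the minus strand, and the Birc3 window at chr9:7873121-7873420 on the minus strand.
Bcl2l11: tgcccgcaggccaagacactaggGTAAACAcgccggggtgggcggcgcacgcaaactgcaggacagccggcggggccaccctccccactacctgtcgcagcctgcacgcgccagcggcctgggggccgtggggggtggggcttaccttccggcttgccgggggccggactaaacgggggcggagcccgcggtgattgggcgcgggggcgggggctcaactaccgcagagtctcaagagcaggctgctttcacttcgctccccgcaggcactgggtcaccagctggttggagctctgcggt
Bcl2l1: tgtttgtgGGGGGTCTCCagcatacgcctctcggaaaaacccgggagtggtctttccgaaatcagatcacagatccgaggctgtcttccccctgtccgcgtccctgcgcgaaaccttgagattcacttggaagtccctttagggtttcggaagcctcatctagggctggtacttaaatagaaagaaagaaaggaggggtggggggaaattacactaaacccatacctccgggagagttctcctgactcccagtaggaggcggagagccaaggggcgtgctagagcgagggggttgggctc
Birc3: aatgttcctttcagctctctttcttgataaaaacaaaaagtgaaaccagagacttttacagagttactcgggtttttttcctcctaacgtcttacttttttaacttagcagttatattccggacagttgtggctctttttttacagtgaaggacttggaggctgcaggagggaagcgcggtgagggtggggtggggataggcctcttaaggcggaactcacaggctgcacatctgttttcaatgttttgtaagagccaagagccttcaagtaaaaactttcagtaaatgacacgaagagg

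All 10 genes matched the promoter table, with 13 windows between them. The windows were searched on both strands for the FOXO site GTAAACA, for the NF-κB consensus (κB site) and for the p53 consensus element, and the matches found did not overlap each other. Of the 13 windows, 2 held a match. The Bcl2l11 window printed above held GTAAACA from 227 bases upstream of the start site, a motif present in 3.65% of the 32851 promoter windows in the table, and the other Bcl2l11 window, at chr2:128127325-128127624, held no match. The printed Bcl2l1 window held GGGGGTCTCC, a match to the κB consensus, from 242 bases upstream of that start site, the other 2 windows of this gene held none, and 4.51% of all windows held such a match. No window of Birc3 or of the other genes held any of the 3 motifs, and the p53 element was in 0.0731% of all windows. A match is a description of letters in the window, not of a bound site.

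Bcl2, the founding pro-survival gene of the family (chr1:106538178-106714274, minus strand), was low and fell in anti-Act1 macrophages. Its level was 4.47 and 6.48 CPM in WT and 3.77 and 2.89 CPM in anti-Act1, from 289 and 492 counts and from 233 and 158 counts. Both anti-Act1 libraries lay below both WT libraries, but the 2 WT libraries also lay apart: the exact Poisson interval (95%, counting error only) was 3.97 to 5.02 CPM in WT replicate 1 and 5.92 to 7.08 CPM in WT replicate 2. The log2 fold change was -0.72 (95% interval -1.05 to -0.38, SE 0.17, and adjusted p = 0.000962 by edgeR), a fold of 0.608. Without WT replicate 2 the call was lost, with -0.42 on the log2 scale and an adjusted p of 0.152 by edgeR. The summed level of mast cell and basophil markers, 0.913 and 1.13 CPM in WT and 0.55 and 0.385 CPM in anti-Act1, and that of proliferation markers, 29.5 and 27.3 CPM in WT and 25.8 and 23.4 CPM in anti-Act1, moved in the same direction, and their part in the Bcl2 result was not tested. Of the 5 mast cell and basophil markers 1 was tested and did not pass, and of the 8 proliferation markers 1, Top2a, passed. The proliferation markers did not move together. Ccnb1, Bub1 and Plk1 were higher in anti-Act1 (log2 fold changes of 0.29, 0.26 and 0.26), whereas Mki67, Cdk1, Aurka and Ccna2 were lower, like Top2a. In GENCODE M21, the antisense gene D630008O14Rik shares 558 of the 9157 exon bases of Bcl2. The length behind the deposited FPKM of Bcl2 was 4668 bases, so the shared bases need not have been counted. The strand used in counting was not given, so if they were counted, reads of the 2 genes cannot be told apart there.

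Bcl2l1, which encodes BCL-XL, also fell (chr2:152780668-152831728, minus strand). It was at 51.1 and 48.2 CPM in WT and at 41.5 and 42.9 CPM in anti-Act1. The groups did not overlap, and the gap between them exceeded the spread within either. The log2 fold change was -0.24 (95% interval -0.36 to -0.11, SE 0.06, and adjusted p = 0.00416 by edgeR), a fold of 0.849. Without anti-Act1 replicate 1 it was -0.21, with an edgeR adjusted p of 0.0973.

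Mcl1, whose short-lived product binds BIM and BAK, did not pass the test. It was at 1555 and 1607 CPM in WT and at 1690 and 1635 CPM in anti-Act1, both anti-Act1 libraries lying slightly above both WT libraries. The log2 fold change was 0.07 (95% interval -0.03 to 0.17, SE 0.05, and adjusted p = 0.335 by edgeR). At counts of 89280 to 122010 per library, counting error was small beside the spread between libraries. The summed FPKM of the 3 pro-survival genes, nearly all of it Mcl1, was 699 ± 17.9 in WT and 718 ± 22.6 in anti-Act1, a difference within the spread between libraries. In CPM, which carry the TMM factors, their sum was 1610 and 1662 in WT and 1736 and 1681 in anti-Act1. In that unit the groups did not overlap, so the reading depends on the unit. Both sums leave out other pro-survival genes of the family. Of these Bcl2a1b, described below, was at 299 ± 4.71 FPKM in WT and 287 ± 11.3 FPKM in anti-Act1.

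Neither effector gene passed the test. Bax was at 92.9 and 86.3 CPM in WT and at 88.1 and 92.0 CPM in anti-Act1, so that the groups overlapped, and the log2 fold change came to 0.01 (95% interval -0.11 to 0.12, SE 0.06, and adjusted p = 0.958 by edgeR), with a sign that turned in 6 of 13 alternatives. Bak1 was at 90.6 and 92.8 CPM in WT and at 97.5 and 99.7 CPM in anti-Act1. Its groups did not overlap, but the log2 fold change of 0.10 (SE 0.05, 95% interval -0.0048 to 0.21) did not pass at an edgeR adjusted p of 0.183. The intervals of both genes hold no change larger than 0.21 on the log2 scale in either direction. Bak1 shares 614 of 2407 exon bases with Ggnbp1 on the other strand, which had 171 and 198 counts in WT and 127 and 172 counts in anti-Act1, and Bax shares 192 of 1576 exon bases with Gm45808 on its own strand.

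Bcl2l11, which encodes the BH3-only protein BIM, fell in anti-Act1 macrophages (chr2:128126038-128162547, plus strand), and the window printed above with a FOXO match is 1 of its 2 promoter windows. It was at 175 and 182 CPM in WT and at 153 and 154 CPM in anti-Act1. The 2 anti-Act1 libraries were close to each other and below both WT libraries. The log2 fold change was -0.22 (95% interval -0.32 to -0.11, SE 0.05, and adjusted p = 0.00128 by edgeR), a fold of 0.86, and the gene passed in 13 of 13 alternatives. Bid, whose product is cut by caspase 8 and links death receptors to mitochondria, did not pass, with 37.8 and 37.3 CPM in WT and 36.7 and 37.0 CPM in anti-Act1. Its change on the log2 scale was -0.03 (95% interval -0.16 to 0.10, SE 0.06, and adjusted p = 0.807 by edgeR). In GENCODE M21, Bid shares 628 of 3550 exon bases with Bcl2l13 on the other strand, which was itself counted (3163 and 3572 counts in WT, 2948 and 2675 in anti-Act1). The length behind the deposited FPKM of Bid was 1961 bases, so the shared bases need not all have been counted. How reads from such bases were assigned is not known.

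Read against each other per gene length, Bcl2l1 and Bcl2l11 fell by like amounts, whereas Mcl1 did not pass. The FPKM ratio of Bcl2l1 to Bcl2l11 was 0.469 and 0.424 in WT and 0.436 and 0.446 in anti-Act1, and the groups overlapped. The ratio of Mcl1 to Bcl2l11 was 17.2 and 17.01 in WT and 21.4 and 20.4 in anti-Act1, with both anti-Act1 libraries above both WT libraries. The ratio of Mcl1 to Bcl2l1 was 36.6 and 40.1 in WT and 49.0 and 45.9 in anti-Act1. The ratio of Bcl2l11 to Bcl2 was 40.3 and 29.0 in WT and 41.7 and 54.99 in anti-Act1, groups that did not overlap but were widely spread. Between the BH3-only genes, the ratio of Bcl2l11 to Bid was 2.002 and 2.115 in WT and 1.804 and 1.807 in anti-Act1, and between the effectors that of Bax to Bak1 was 1.17 and 1.06 in WT and 1.03 and 1.05 in anti-Act1. The summed FPKM of Bcl2l11 and Bid was 59.1 ± 1.21 in WT and 52.2 ± 0.0987 in anti-Act1, whereas that of Bax and Bak1 was 97.8 ± 1.59 in WT and 99.8 ± 1.44 in anti-Act1. These ratios and sums were not tested, and they describe RNA, not protein.

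**Figure D3:**
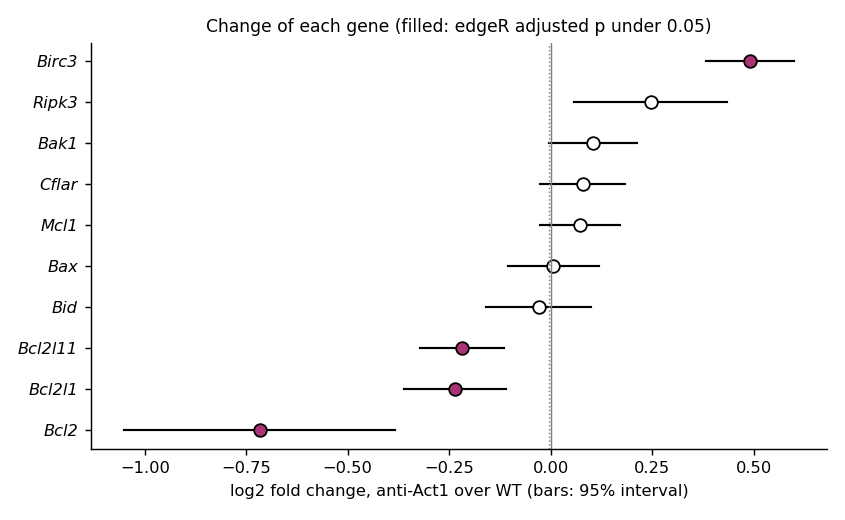
Log2 fold change, anti-Act1 over WT (horizontal axis), of each of the 10 genes in order of size, with the 95% interval of the edgeR estimate as a bar, filled points for an adjusted p under 0.05, a solid grey line at 0 and a dotted line at the median of all genes tested. Bcl2, at -0.72, had the widest interval, and the interval of Birc3, 0.38 to 0.60, lay farthest above 0.

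Birc3, which encodes cIAP2, an inhibitor of apoptosis that ubiquitylates RIPK1, rose (chr9:7848699-7873186, minus strand). It was at 85.4 and 82.4 CPM in WT and at 119 and 117 CPM in anti-Act1. Both anti-Act1 libraries lay well above both WT libraries, and the libraries of a group differed little. The log2 fold change was 0.49 (95% interval 0.38 to 0.60, SE 0.05, and adjusted p = 6.11e-10 by edgeR), a fold of 1.41, and the gene passed in 13 of 13 alternatives. Birc2, the neighbouring gene that encodes cIAP1, was at 27.5 and 28.8 CPM in WT and at 29.0 and 29.8 CPM in anti-Act1 and did not pass (edgeR adjusted p = 0.613). The FPKM ratio of Birc3 to Birc2 was 3.98 and 3.67 in WT and 5.27 and 5.03 in anti-Act1.

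Cflar, which encodes the caspase 8 inhibitor cFLIP, did not pass the test. It was at 155 and 162 CPM in WT and at 164 and 170 CPM in anti-Act1, groups that lay side by side without overlap, and the log2 fold change came to 0.08 (95% interval -0.03 to 0.18, SE 0.05, and adjusted p = 0.317 by edgeR). Casp8, the gene of its target, was at 92.4 CPM in both WT libraries and at 87.0 and 85.1 CPM in anti-Act1 and did not pass either (edgeR adjusted p = 0.194). The count table gives 1 value per gene, so the long and short forms of cFLIP were not separated.

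Ripk3, the kinase that starts necroptosis, came near the threshold without passing it. It was at 12.2 and 11.7 CPM in WT and at 14.2 CPM in both anti-Act1 libraries, so the anti-Act1 libraries lay close together, above both WT libraries. The log2 fold change was 0.25 (SE 0.09, 95% interval 0.06 to 0.43), with an unadjusted p of 0.0116 and an edgeR adjusted p of 0.0542, and over 13 alternatives the adjusted p ran from 0.0517 to 0.222. Ripk1, which encodes the partner kinase of RIPK3, fell, from 149 and 150 CPM in WT to 132 and 133 CPM in anti-Act1 (log2 fold change -0.17 ± 0.05 SE, adjusted p = 0.0128 by edgeR), though it did not pass without either anti-Act1 library (adjusted p of 0.145 without replicate 1 and 0.112 without replicate 2, by edgeR). The FPKM ratio of Ripk1 to Ripk3 was 7.46 and 7.78 in WT and 5.70 and 5.72 in anti-Act1.

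The wider cell death pathway was read from 9 lists of 76 genes, of which 69 were tested. Beside the 10 genes above, 59 list genes were tested, and 26 of them (44.1%) passed, 20 higher and 6 lower, beside 20.7% of all genes tested. Their median log2 fold change was 0.02. The lists share genes with each other and were chosen with earlier results of these data known. Each list's count stands beside 10.9% of all genes tested that were higher and 9.76% that were lower.

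Of the pro-survival BCL2 list, 7 of 9 genes were tested, and 1 rose and 2 fell (median log2 fold change 0.07). The gene that rose was Bcl2a1a, an A1 gene of the pro-survival group, at 4.63 and 5.10 CPM in WT and 10.2 and 9.49 CPM in anti-Act1 (log2 fold change 1.02 ± 0.12 SE, adjusted p = 9.31e-09 by edgeR). Its near-identical copies Bcl2a1b and Bcl2a1d did not pass, with log2 fold changes of -0.03 and 0.17, and reads could be split among the copies in counting, so the value of any single copy is uncertain. Summed over all A1 copies on the list the level was 249 and 252 CPM in WT and 258 and 248 CPM in anti-Act1, with 87.4% to 90.6% of it from Bcl2a1b, and the groups overlapped. Among the effectors 2 of 3 genes were tested, Bax and Bak1, and 0 passed (0 also at an unadjusted p under 0.05, and 0 with DESeq2 or limma).

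Of the BH3-only list, 8 of 10 genes were tested, and 2 rose and 2 fell (median log2 fold change -0.01). Bmf, which encodes a BH3-only protein released from the cytoskeleton, fell beside Bcl2l11, from 38.4 and 36.6 CPM to 27.3 and 25.7 CPM (log2 fold change -0.50 ± 0.07 SE, adjusted p = 1.13e-07 by edgeR). The genes that rose were Bnip3, from 382 and 397 CPM to 560 and 505 CPM (log2 fold change 0.45, SE 0.05), and Bnip3l, from 355 and 388 CPM to 483 and 449 CPM (log2 fold change 0.33, SE 0.05). Both encode mitochondrial proteins known as hypoxia-induced receptors of mitophagy, with a weak BH3 domain.

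All 12 genes of the list of IAP proteins and their antagonists were tested, and 3 rose and 1 fell (median log2 fold change -0.03). Beside Birc3, the genes that rose were Xaf1, an interferon-induced antagonist of XIAP (log2 fold change 0.31, SE 0.06), and Naip2, an inflammasome sensor of the NAIP family (0.27, SE 0.05). Naip6 fell (log2 fold change -0.17 ± 0.06 SE, adjusted p = 0.0287 by edgeR), a call that held in 6 of 13 alternatives, and the NAIP genes are close copies whose reads could be split in counting. Of 8 genes of the apoptotic caspases and the apoptosome, 1 rose, Casp6, which encodes an executioner caspase (log2 fold change 0.27 ± 0.07 SE, adjusted p = 0.00283 by edgeR), and its call was lost without WT replicate 2 (0.17, edgeR adjusted p = 0.141).

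Of 16 genes of the death receptor complexes, all tested, 5 rose and 1 fell (median log2 fold change 0.04). Fas, the death receptor itself, rose from 8.22 and 8.34 CPM to 12.4 and 12.7 CPM (log2 fold change 0.60 ± 0.10 SE, adjusted p = 1.67e-05 by edgeR). Tnfaip3, which encodes the NF-κB brake A20, rose from 73.5 and 72.9 CPM to 113 and 114 CPM (log2 fold change 0.63 ± 0.05 SE, adjusted p = 5.31e-13 by edgeR). Traf1, which encodes an adaptor that binds cIAPs, rose (0.62, SE 0.09), and Tradd, an adaptor of the TNF receptor, rose by less (0.21, SE 0.07, edgeR adjusted p = 0.0409), passing in 5 of 13 alternatives. The fifth was Tnfrsf10b, the mouse TRAIL receptor, at under 1 CPM in every library, which passed in 8 of 11 alternatives. The gene that fell was Ripk1, given above. Without anti-Act1 replicate 1 the list had 3 genes that passed in place of 6.

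All 8 genes of the necroptosis list were tested, and 2 rose and 1, Ripk1, fell (median log2 fold change -0.01). Mlkl, the pore-forming substrate of RIPK3, rose from 23.9 and 21.5 CPM to 28.1 and 26.9 CPM (log2 fold change 0.28 ± 0.07 SE, adjusted p = 0.00484 by edgeR). Zbp1, a nucleic acid sensor that engages RIPK3, rose from 79.3 and 75.9 CPM to 99.1 and 95.3 CPM (log2 fold change 0.32 ± 0.06 SE, adjusted p = 9.9e-06 by edgeR). Mlkl lost its call without WT replicate 2 (0.20, edgeR adjusted p = 0.111) and without anti-Act1 replicate 1 (0.25, edgeR adjusted p = 0.0732), and the list had 1 gene that passed without the latter library.

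The transcription factor lists were those of genes known to be raised by p53 and by NF-κB. Of 14 tested p53 targets (of 16 listed), 6 rose and 3 fell (median log2 fold change 0.02). Among those that rose were Cdkn1a, the cell cycle inhibitor p21, from 354 and 347 CPM to 469 and 468 CPM (log2 fold change 0.42, SE 0.05), Phlda3, an inhibitor of AKT (0.68, SE 0.09), Mdm2, the ligase that degrades p53 (0.28, SE 0.05), and Sesn2 (0.31, SE 0.06). Sesn1, a stress-induced sestrin like Sesn2, fell from 73.9 and 73.2 CPM to 48.2 and 49.2 CPM (log2 fold change -0.59 ± 0.06 SE, adjusted p = 2.84e-11 by edgeR). Trp53inp1 and Ccng1 also fell, with log2 fold changes of -0.18 and -0.16, and passed in 6 and 7 of 13 alternatives. Trp53inp1 was at -0.05 without WT replicate 2 and at -0.29 without WT replicate 1, and it passed only in the latter of the 4 fits with 1 library left out. Ccng1 was at -0.10 without WT replicate 2 and at -0.09 without anti-Act1 replicate 2, where it did not pass.

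Of 14 NF-κB survival targets, all tested, 7 rose and 1, Bcl2l1, fell, with a median log2 fold change of 0.25 beside -0.0046 over all genes tested. Sod2, the mitochondrial superoxide dismutase, rose from 105 and 104 CPM to 194 and 201 CPM (log2 fold change 0.91 ± 0.05 SE, adjusted p = 4.05e-19 by edgeR). Ier3, an immediate early gene that limits apoptosis, rose from 132 and 137 CPM to 188 and 181 CPM (log2 fold change 0.45, SE 0.05). Birc3, Tnfaip3, Traf1 and Bcl2a1a, given above, rose as well. The value of Bcl2a1a alone is uncertain, since its near-identical copies Bcl2a1b and Bcl2a1d, also on this list, did not pass (-0.03 and 0.17). Cflar, a member of the same list, did not pass, and Bcl2l1, whose printed window holds a κB match, went the other way.

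**Figure D4:**
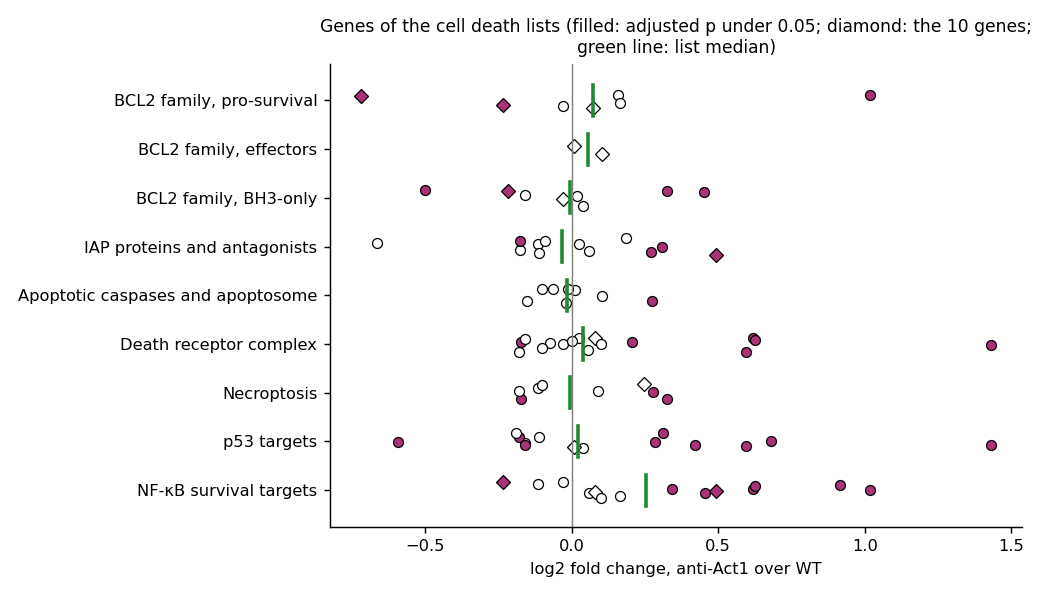
Log2 fold change, anti-Act1 over WT (horizontal axis), of each tested gene in the 9 cell death lists (1 line per list, points spread vertically for legibility), with filled points for an edgeR adjusted p under 0.05, diamonds for the 10 genes and green lines for each list's median. The NF-κB survival targets had the highest list median, at 0.25, and each other list's median lay between -0.03 and 0.07.

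Across the alternatives, between 3 and 4 of the 10 genes passed the test. Birc3 stayed between 0.45 and 0.52 on the log2 scale and Bcl2l11 between -0.25 and -0.19. Bcl2 ranged from -0.96 to -0.35, the widest of the 10, and Bcl2l1 from -0.28 to -0.19.

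**Figure D5:**
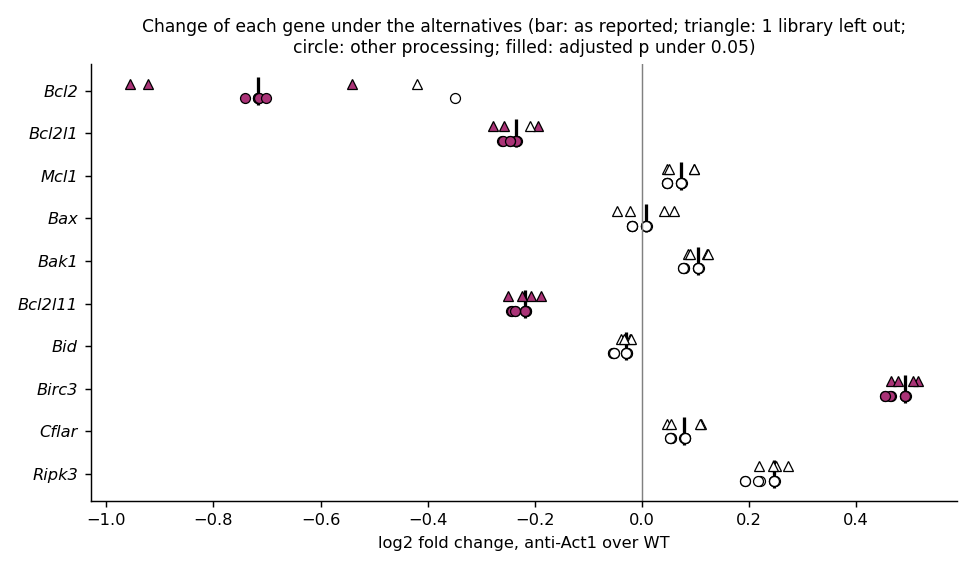
Log2 fold change, anti-Act1 over WT (horizontal axis), of the 10 genes as reported (bars), with 1 library left out (triangles) and under other normalizations, filters, tools or units (circles), filled where the adjusted p was under 0.05. Birc3 and Bcl2l11 were filled throughout, Bcl2 spread most, and Bax fell on both sides of 0.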

How the data were processed

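RNA was measured in 4 libraries of cocultured macrophages, 2 WT and 2 anti-Act1, which the study describes as biological replicates. The authors aligned paired reads with TopHat and deposited raw counts per gene and FPKM, normalised to gene length and library size. The submitters' processing notes also name HTSeq 0.6.1, Bowtie 0.12.2 and the builds mm8 and mm10, without saying which step used which. The strand setting of the counting was not given in the sources used here.

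Library totals ran from 55435063 to 75062945 counts, and the floor of 3 counts, up to which a gene listed at 0 could lie, was 0.04 to 0.0541 CPM. Intervals on counts cover counting error only. Counts were tested in R 4.3.3 with edgeR 4.0.16 (TMM, its default filter on low counts, condition as the only term, quasi-likelihood F test, Benjamini-Hochberg adjustment over 12494 genes). The 10 members and all gene lists were chosen with earlier results of these data known, so their counts are descriptions and no list was tested as a set. Genes named from a list had an adjusted p under 0.05 and a mean of at least 1 CPM, at most 6 per list in order of p. Genes that overlap a member in GENCODE M21 were named too. Bcl2a1b, Bcl2a1d, Birc2, Casp8, Tnfrsf10b, Trp53inp1, Ccng1, Itgam, Mertk, Cd14, Top2a, S100a8, S100a9, Retnlg and Ngp were named after their values were seen. Levels were compared between genes as deposited FPKM, except that the share of Bcl2a1b among its copies is of CPM and overlapping genes are given as counts. Alternatives were DESeq2 1.42.0, other size factors and filters, the replicate number as a block, leaving out each library, and limma 3.58.1 on log2(FPKM + 1) or log2(FPKM + 0.1), with an FPKM minimum of 1 in 2 libraries or none. Scripts were tested on simulated counts. Gene positions are from GENCODE M21 on GRCm38 and promoter windows from RefSeq on GRCm38.p6.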

Additional observations from a re-analysis of the deposited data

How the results depend on the processing

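The number of genes passing was 2586 (1366 higher, 1220 lower) as reported, 1986 with DESeq2, 1091 with limma on unfiltered log2(FPKM + 1) and 1671 to 2543 when 1 library was left out, the lowest without anti-Act1 replicate 2 (1712 without anti-Act1 replicate 1). Library totals without composition scaling gave 1105 higher and 1411 lower. Among the 10 genes, Bcl2 was at -0.35 with limma on unfiltered values, where it did not pass, and at -0.96 to -0.42 with 1 library left out. Limma with the FPKM filter did not test Bcl2. Bcl2l1 was at -0.28 to -0.19 with 1 library left out. Bax was at -0.0187 without composition scaling, at -0.0179 with limma on log2(FPKM + 1) with or without the filter, at -0.0182 with limma on log2(FPKM + 0.1), and at -0.0463 to 0.0592 with 1 library left out (-0.0231 without anti-Act1 replicate 2), and it passed in none of these. Bcl2a1b was at -0.0597 to 0.00076 with 1 library left out, the highest without anti-Act1 replicate 2. Traf3ip2 was at 0.11 to 0.41 with 1 library left out and passed without anti-Act1 replicate 2 (edgeR adjusted p = 0.0343). With limma on unfiltered values 2 IAP genes and 0 caspase genes passed (1 caspase gene with DESeq2). With 1 library left out, 0 to 1 caspase genes, 3 to 6 death receptor genes and 1 to 3 necroptosis genes passed. The summed effector level moved by 0.057 (log2) in CPM and 0.028 in FPKM. In each of these the cause was not tested. A library left alone in its group was assumed to vary like the other group.

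No shared deviation of same-numbered libraries was seen: over the genes tested, their deviations had a correlation of -0.03. This value cannot say whether same-numbered libraries were handled together. With the replicate block 2406 genes passed, and 4 of the 10 genes did.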

Other observations

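Markers of other cells and states were read in the same libraries. Of 8 macrophage markers, 1 rose, Cd14, the lipopolysaccharide co-receptor (log2 fold change 0.16, SE 0.05), and 2 fell: Itgam, an integrin subunit of complement receptor 3 (-0.31, SE 0.05), and Mertk, a receptor for the uptake of apoptotic cells, from 170 and 177 CPM in WT to 131 and 133 CPM in anti-Act1 (-0.40, SE 0.05, edgeR adjusted p = 4.09e-08). Of 8 neutrophil markers 6 were tested. S100a8 rose, from 3.61 and 3.74 CPM to 6.09 and 5.55 CPM (edgeR adjusted p = 0.000564), whereas S100a9 fell, from 1.83 and 1.55 CPM to 0.81 and 0.439 CPM (edgeR adjusted p = 0.00065), and Ngp and Retnlg, each under 1 CPM in every library, fell as well. The summed level of the list was 6.65 to 7.04 CPM in WT and 6.46 to 7.37 CPM in anti-Act1. Of 8 proliferation markers, Top2a, which encodes topoisomerase II alpha, fell (log2 fold change -0.71, SE 0.17, edgeR adjusted p = 0.000973).

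Summed levels of the other lists were low, and 0 of their tested genes passed with edgeR, 0 had an unadjusted p under 0.05 and 0 passed with DESeq2 or limma. They were 1.13 to 1.94 CPM in WT and 1.502 to 2.01 CPM in anti-Act1 for T cell markers, 2.91 to 3.18 and 3.69 to 4.03 CPM for B cell markers, 4.37 to 5.31 and 4.26 to 4.93 CPM for dendritic cell markers, and 0.542 to 0.738 and 0.453 to 0.824 CPM for fibroblast markers. The part of these cells in the levels of the 10 genes was not tested.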
